A study of Mus musculus with 11 samples.

Results

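The data describe 10 transcription regulators of fat cell formation and energy metabolism, the genes Pparg, Cebpa, Cebpb, Cebpd, Ppargc1a, Ppargc1b, Esrra, Nr1h3, Rxra and Klf15, in the pancreas and epididymal adipose tissue of control mice and of mice with obesity-related alcohol-induced acute pancreatitis (OA-AP). They were found by gene name, and all 10 are listed among the 54532 genes counted in the pancreas and the 46078 counted in adipose tissue. Expression was measured by RNA sequencing of 11 libraries, from 2 control and 3 OA-AP pancreases and from 3 control and 3 OA-AP adipose tissues. All mice were wild type male C57BL/6 mice (C57BL/6J in the study's methods) with a labelled age of 16 weeks. Control mice ate normal chow for 12 weeks and then received saline, while OA-AP mice were fed a high-fat diet over the same 12 weeks before receiving ethanol at 2 g/kg, in both groups as 2 intraperitoneal injections 1 h apart. Diet and ethanol differ together between the groups, so the part of each in a difference cannot be told apart. The labels do not tie libraries to single animals, so the tests measure the spread between these samples.

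In a differentiating fat cell, C/EBPβ and C/EBPδ are induced early and bind the genes of PPARγ and C/EBPα, which then maintain each other and the adipocyte program. PPARγ and the oxysterol receptor LXRα (Nr1h3) bind DNA as partners of RXRα (Rxra), while the coactivators PGC-1α (Ppargc1a) and PGC-1β (Ppargc1b) act with the estrogen-related receptor ERRα (Esrra) on mitochondrial genes. KLF15 is a glucocorticoid-induced factor that controls amino acid and lipid genes. C/EBPβ and C/EBPδ are also factors of the acute-phase response, outside fat cells too.

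The promoters of 4 members are shown because the changes below turn on these genes: Cebpb was higher and Ppargc1a lower in OA-AP in both tissues, Klf15 was the member with the highest level per length in the pancreas, and Pparg differed most between the tissues. The sequences are from RefSeq on GRCm38.p6, in which 8 of the 10 members matched an entry that was used, with 12 starts. Each runs 5′ to 3′ on the gene's strand from 250 bases before the annotated start to 20 after it. Capitals mark matches on either strand to the C/EBP motif TTNCNNAA, the E-box CACGTG and TGACG, a core of cyclic AMP response elements. In the Klf15 sequence the last E-box and a TGACG match share bases.
Cebpb, chr2:167688665-167688934, plus strand: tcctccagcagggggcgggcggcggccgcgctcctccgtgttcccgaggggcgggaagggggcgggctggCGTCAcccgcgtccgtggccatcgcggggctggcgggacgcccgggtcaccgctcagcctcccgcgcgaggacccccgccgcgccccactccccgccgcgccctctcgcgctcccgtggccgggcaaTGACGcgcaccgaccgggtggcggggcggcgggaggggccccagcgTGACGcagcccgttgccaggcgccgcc
Ppargc1a, chr5:51567706-51567975, minus strand: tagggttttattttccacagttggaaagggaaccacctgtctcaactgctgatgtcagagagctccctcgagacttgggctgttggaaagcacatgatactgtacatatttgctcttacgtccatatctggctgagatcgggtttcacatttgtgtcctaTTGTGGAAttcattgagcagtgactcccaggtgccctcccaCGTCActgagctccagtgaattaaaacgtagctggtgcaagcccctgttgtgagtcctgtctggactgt
Klf15, chr6:90462326-90462595, plus strand: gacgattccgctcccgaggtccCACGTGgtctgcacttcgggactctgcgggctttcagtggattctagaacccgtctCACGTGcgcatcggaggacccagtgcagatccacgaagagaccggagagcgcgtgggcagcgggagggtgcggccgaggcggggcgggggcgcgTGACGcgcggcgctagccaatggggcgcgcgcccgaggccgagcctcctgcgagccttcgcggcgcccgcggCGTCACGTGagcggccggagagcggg
Pparg, the third annotated start, chr6:115421816-115422085, plus strand: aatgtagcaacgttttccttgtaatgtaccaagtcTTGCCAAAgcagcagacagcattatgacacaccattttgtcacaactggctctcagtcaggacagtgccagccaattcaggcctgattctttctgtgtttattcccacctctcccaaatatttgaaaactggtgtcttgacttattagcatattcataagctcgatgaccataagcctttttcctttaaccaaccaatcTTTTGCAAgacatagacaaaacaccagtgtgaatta
Of 32851 mouse promoters, with windows from 250 before to 50 after the start, 20.8% held TGACG, 7.15% CACGTG and 40.7% TTNCNNAA. The Cebpb promoter held TGACG 3 times, starting at -180, -53 and -7 from the first transcribed base, which is counted as 0, and 1.03% of promoters held as many. The Klf15 promoter held CACGTG 3 times, at -228, -172 and -3, and 0.0883% of promoters held as many. Ppargc1a had a C/EBP match at -90 and TGACG at -49. The third Pparg start had C/EBP matches at -215 and -16, and 13.6% of promoters held as many. The first and second Pparg starts, which are not shown, had no match to any of these motifs. The nuclear receptor motif AGGTCA, its direct repeat DR1 and the GC box GGGCGG were also searched, are not in capitals, and were held by 16.3%, 0.0396% and 35.7% of promoters. Matches are letters in these windows and were not tested for binding.

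In the pancreas, Rxra, Cebpb and Cebpd were upregulated in OA-AP and Ppargc1a was downregulated, which made 4 of the 9 members tested. Of all 12884 genes tested there, 29.8% were called, 16.2% higher and 13.5% lower, where a call needed a Benjamini-Hochberg adjusted p below 0.05 in edgeR's quasi-likelihood test and a fold change of at least 1.5. In adipose tissue 6 of 10 members were called, with Cebpb and Cebpd upregulated and Cebpa, Esrra, Ppargc1a and Ppargc1b downregulated. Among all 15839 genes tested in adipose tissue 25.1% were called, 12.1% higher and 13.0% lower. Control and OA-AP values did not overlap for 7 of 9 tested members in the pancreas and 8 of 10 in adipose tissue, against 62.3% and 52.4% of all tested genes. Levels are in CPM, the count of a gene relative to the library total, with totals scaled between the libraries of a tissue by TMM (trimmed mean of M-values) factors, which hold the bulk of genes level.

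**Figure D1:**
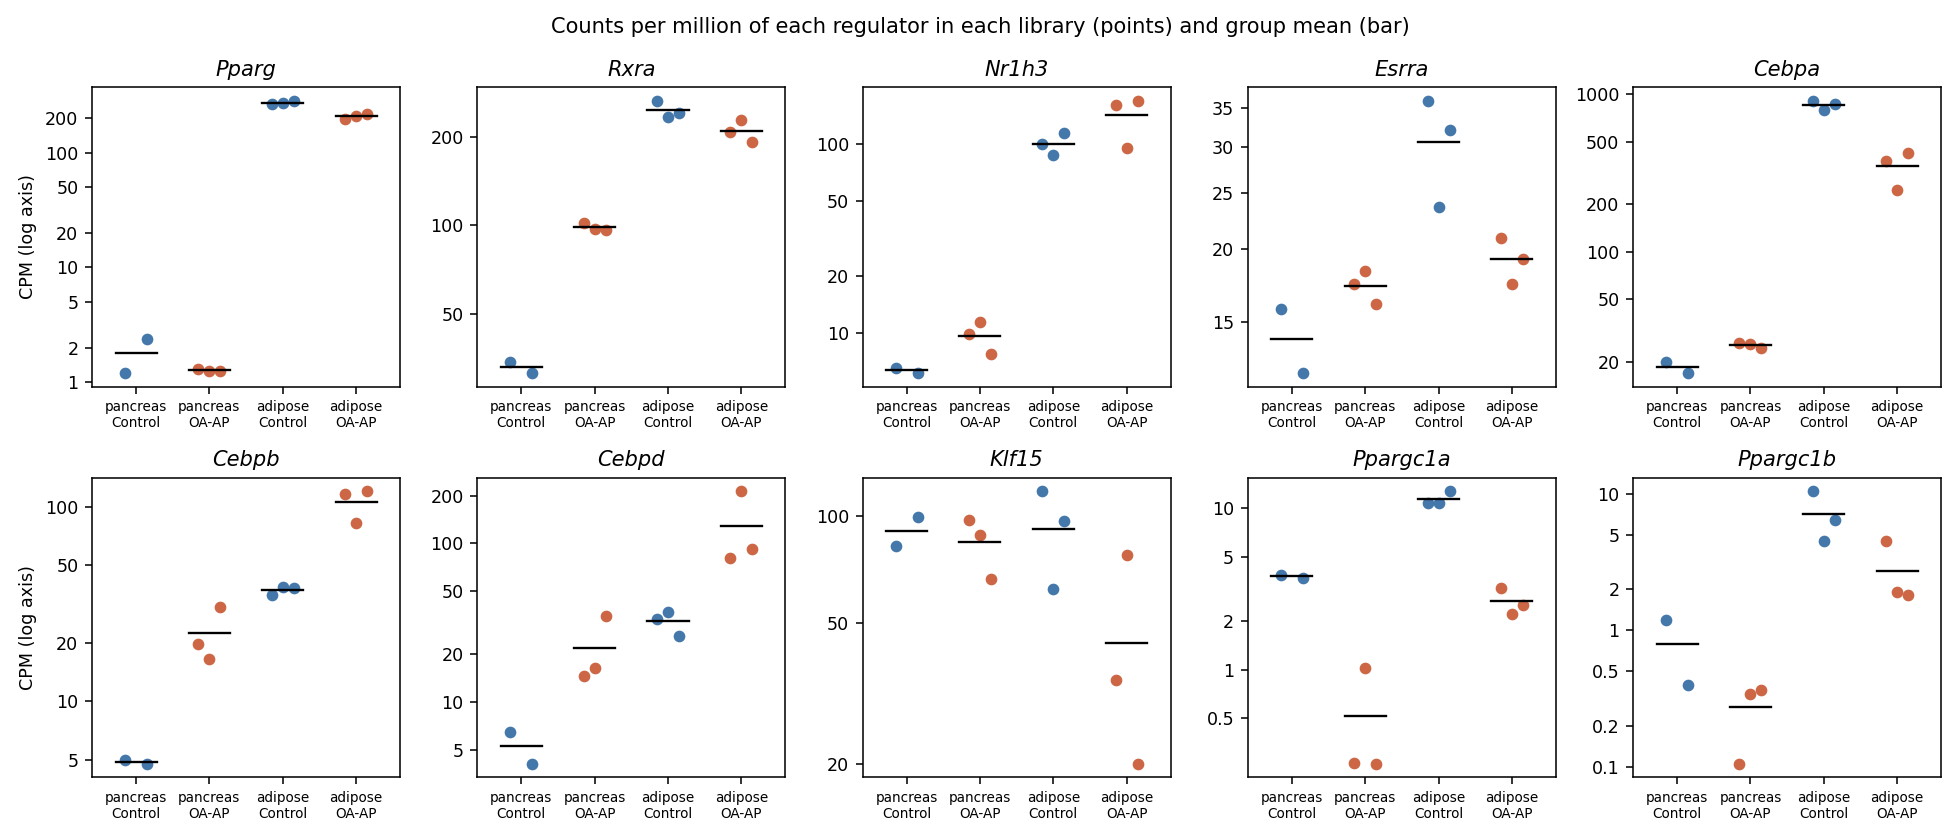
CPM of each regulator (log axis, a separate range in each panel) in the 2 control and 3 OA-AP pancreas libraries and the 3 control and 3 OA-AP adipose libraries, with each point a library and each bar a group mean. Cebpb and Cebpd lie higher and Ppargc1a lower in every OA-AP library of both tissues, while Cebpa is lower in the OA-AP libraries of adipose tissue and not in those of the pancreas. Scaling is within each tissue, so heights are not comparable between tissues.

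The libraries held 14188832 to 17238919 counts in the pancreas and 20825177 to 27928097 in adipose tissue. The 23 acinar genes listed as markers took 68.5% and 70.1% of the counts in control pancreas and 52.8% to 55.1% in OA-AP pancreas, so each pancreas value is a share of a changed pool. Scaling by library totals without TMM factors, the median log2 change of all tested pancreas genes was 0.75, against 0.04, and 5843 genes were called higher and 506 lower, against 2090 and 1744. In adipose tissue the same change of scaling moved the median from -0.01 to -0.17 and gave 1365 genes higher and 2885 lower, against 1915 and 2066. The adipose library of control replicate 2 held acinar markers at 8564 CPM, against at most 21.2 CPM in the other 5, and the members called in adipose tissue numbered 6 without it as with it. All 12 adipocyte markers had counts in all 6 adipose libraries. In the pancreas, summed over 5 libraries, Adipoq had 2 counts, Plin1 5, Cidec 6, Lep 3 and Retn none, although Fabp4, Plin4, Gpd1 and Lipe were present and the 12 markers summed to 46.8 to 59.7 CPM in control and 86.0 to 116 CPM in OA-AP pancreas. In whole tissue, fewer cells of a type and less RNA per cell cannot be told apart.

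Cebpb (chr2:167688915-167690418 on GRCm38, plus strand), whose protein is induced early in adipogenesis and in the acute-phase response, measured 4.98 and 4.79 CPM in control pancreas and 19.7, 16.6 and 30.6 CPM in OA-AP pancreas. In adipose tissue it measured 35.0, 38.6 and 38.0 CPM in controls and 116, 82.4 and 120 CPM in OA-AP. The groups were apart in both tissues, and the highest pancreas value was that of OA-AP replicate 3. The change was 4.56-fold in the pancreas (log2 2.19, SE 0.30, edgeR adjusted p = 0.00157) and 2.84-fold in adipose tissue (log2 1.51, SE 0.15, edgeR adjusted p = 0.000814). The single-exon transcript shares 312 of its 1504 bases (20.7%) with exons of Tmem189 on the opposite strand in GENCODE M21. As the strand setting of the counting was not given in the sources used here, reads of the shared bases cannot be assigned to one gene. Tmem189 was itself higher in OA-AP in both tissues, with log2 changes of 1.66 (SE 0.35, edgeR adjusted p = 0.0101) in the pancreas and 0.70 (SE 0.19, edgeR adjusted p = 0.0284) in adipose tissue.

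Cebpd (chr16:15887286-15891031, plus strand), a related factor induced by glucocorticoids and cytokines, had 6.44 and 4.09 CPM in control pancreas and 14.5, 16.4 and 34.8 CPM in OA-AP pancreas. Adipose values were 33.6, 37.1 and 26.2 CPM in controls and 81.5, 213 and 91.7 CPM in OA-AP. Every OA-AP value lay above every control value of its tissue, with 1 library in each tissue far above the other OA-AP libraries, replicate 3 in the pancreas and replicate 2 in adipose tissue. The fold change was 4.14 in the pancreas (log2 2.05, SE 0.48, edgeR adjusted p = 0.0206) and 3.98 in adipose tissue (log2 1.99, SE 0.39, edgeR adjusted p = 0.00907). Without control replicate 1 or 2 in turn the pancreas difference was no longer called (log2 2.43 and 1.77, edgeR adjusted p = 0.0791 and 0.136), a comparison in which the remaining control is assumed to vary like the other group. Spidr, on the opposite strand, shares 562 of the 3746 exon bases of Cebpd, and it had 2.58 ± 0.01 CPM (SD, n = 2) in control and 1.84 ± 0.38 CPM (SD, n = 3) in OA-AP pancreas. In adipose tissue Spidr was higher in OA-AP, at 12.2 ± 0.97 CPM in controls and 18.4 ± 4.31 CPM in OA-AP (SD, n = 3; log2 0.60, SE 0.17, edgeR adjusted p = 0.0328).

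The OA-AP replicate with the highest Cebpb and Cebpd in the pancreas also held the most neutrophil marker RNA. The 11 neutrophil markers summed to 2.06 and 2.89 CPM in control pancreas and 15.9, 4.63 and 109 CPM in OA-AP replicates 1, 2 and 3, and none of the 8 tested was called. In OA-AP replicate 2, where these markers stood at 4.63 CPM, Cebpb was at 16.6 CPM and Cebpd at 16.4 CPM, both above each control library. Without OA-AP replicate 3 the change was 1.85 for Cebpb and 1.49 for Cebpd on the log2 scale. In adipose tissue the neutrophil markers summed to 17.7 to 36.4 CPM in controls and 188 to 211 CPM in OA-AP, with 6 of 7 tested markers upregulated. The 13 macrophage markers other than Lpl summed to 1288 to 1592 and 1379 to 2037 CPM, with 5 upregulated and 1 downregulated. The 10 lymphocyte markers went the other way, from 13.9 to 50.3 CPM down to 3.52 to 5.81 CPM. The part of these cells in the higher Cebpb and Cebpd was not tested.

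Cebpa (chr7:35119293-35121928, plus strand), the factor that with PPARγ maintains the mature adipocyte, was downregulated in adipose tissue. Controls had 909, 798 and 874 CPM and OA-AP libraries 379, 248 and 423 CPM, so the groups were far apart. This is a 2.46-fold lower level (log2 -1.30, SE 0.20, edgeR adjusted p = 0.00369). In the pancreas Cebpa measured 19.9 and 17.0 CPM in controls and 26.2, 25.8 and 24.4 CPM in OA-AP, a fold change of 1.38 (log2 0.47, SE 0.14, edgeR adjusted p = 0.0380) that was under the fold threshold. The summed adipocyte markers were at 44300.4 to 47039 CPM in control adipose tissue and 35483 to 45594 CPM in OA-AP, with 4 of 12 downregulated and 1 upregulated, and their part in the lower Cebpa was not tested. The 11 fibroblast and preadipocyte markers moved further in sum, from 3739 to 4554 CPM down to 2455 to 2914 CPM. Of these, 6 were downregulated and 1 was upregulated.

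Within each library, the ratio of Cebpb to Cebpa per length does not depend on the scaling of libraries. In adipose tissue it was 0.0676, 0.0849 and 0.0763 in controls and 0.535, 0.583 and 0.496 in OA-AP, 7.07-fold higher. In the pancreas it was 0.441 and 0.499 in controls and 1.32, 1.13 and 2.20 in OA-AP, 3.17-fold higher. Thus Cebpa was the more abundant of the pair in each control library and in each OA-AP adipose library, and Cebpb in each OA-AP pancreas library. The ratio of Cebpd to Cebpa was 9.19-fold higher in OA-AP adipose tissue and 2.83-fold higher in OA-AP pancreas. On the log2 scale the adipose difference was 3.20, and 2.54 without OA-AP replicate 2. Each of these differences had an exact permutation p = 0.1 (two-sided), the smallest that 2 against 3 or 3 against 3 samples allow, and 0.171 after Benjamini-Hochberg adjustment over the 12 ratios compared.

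**Figure D2:**
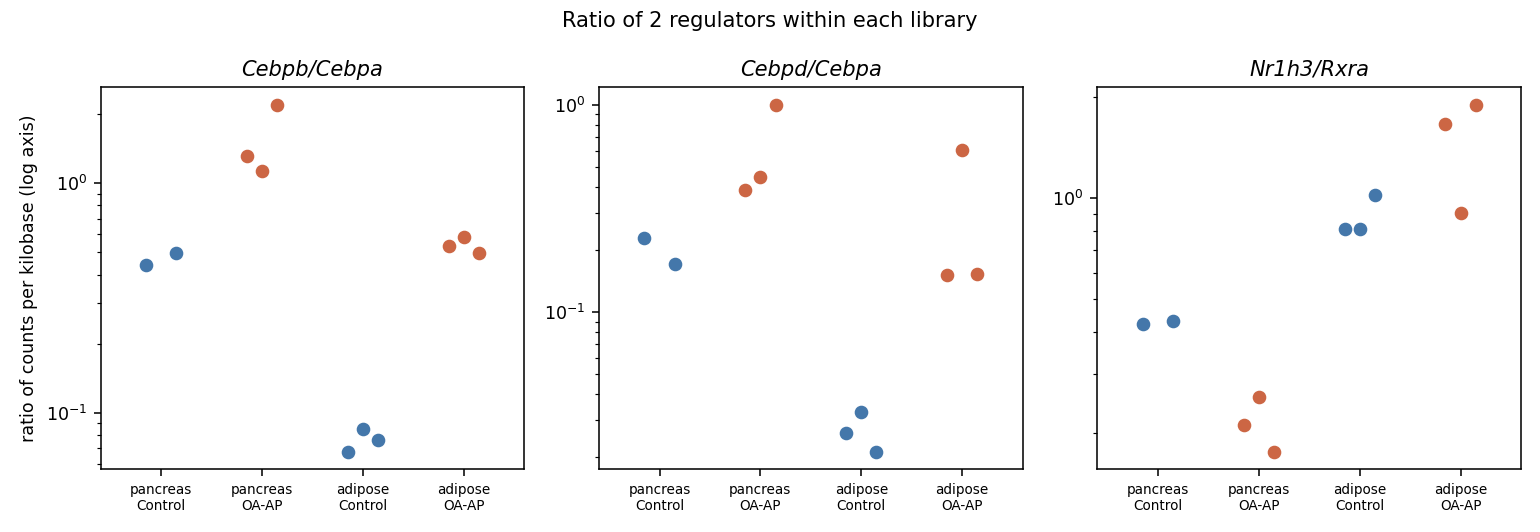
Ratio of counts per kilobase of 2 regulators within each library (log axis), with each point a library of control or OA-AP pancreas or adipose tissue. Cebpb/Cebpa and Cebpd/Cebpa are higher in OA-AP than in control libraries of both tissues, and Nr1h3/Rxra is lower in OA-AP pancreas.

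Pparg (chr6:115360951-115490399, plus strand), the main regulator of adipocyte formation, had 264, 269 and 283 CPM in control and 198, 209 and 216 CPM in OA-AP adipose tissue. The groups did not overlap, but the 1.31-fold lower level (log2 -0.39, SE 0.09, edgeR adjusted p = 0.0177) was under the fold threshold. In the pancreas Pparg was low, with 14 and 24 counts in controls (1.2 and 2.4 CPM) and 22 to 25 counts in OA-AP (1.26 to 1.31 CPM). Its log2 change there was -0.48 (SE 0.42, edgeR adjusted p = 0.407), and with library totals in place of TMM factors the sign turned, to 0.25.

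Rxra (chr2:27676440-27762957, plus strand), the shared partner of PPARγ and LXRα, was upregulated in the pancreas. It had 34.2 and 31.4 CPM in control and 102, 97.0 and 96.6 CPM in OA-AP pancreas, with little spread within either group. The 3.0-fold increase (log2 1.59, SE 0.13, edgeR adjusted p = 0.000197) ranked 107 by p among all genes tested in the pancreas. In adipose tissue Rxra had 265, 234 and 241 CPM in controls and 208, 228 and 192 CPM in OA-AP (log2 -0.24, SE 0.11, edgeR adjusted p = 0.129). The ratio of Pparg to Rxra in OA-AP pancreas was 4.02-fold lower than in control pancreas (exact permutation p = 0.1, two-sided, the smallest possible), while in adipose tissue the groups overlapped.

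Nr1h3 (chr2:91184061-91202834, minus strand), which encodes the oxysterol receptor LXRα, was not called in either tissue. It had 6.61 and 6.18 CPM in control and 9.87, 11.4 and 7.79 CPM in OA-AP pancreas, a log2 change of 0.60 (SE 0.22, edgeR adjusted p = 0.0693) with no overlap between the groups. In adipose tissue it had 99.3, 86.9 and 113 CPM in controls and 160, 94.7 and 168 CPM in OA-AP (log2 0.49, SE 0.22, edgeR adjusted p = 0.124). OA-AP replicate 2 was the one adipose OA-AP library within the control range, and without it the difference was called (log2 0.72, edgeR adjusted p = 0.00619). Relative to Rxra, Nr1h3 was 2.01-fold lower in OA-AP pancreas, with ratios of 0.421 and 0.430 in controls and 0.211, 0.257 and 0.176 in OA-AP (exact permutation p = 0.1, two-sided, the smallest possible).

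Ppargc1a (chr5:51454250-51567726, minus strand), the inducible coactivator of mitochondrial biogenesis and, in liver, of gluconeogenesis, was downregulated in both tissues. Pancreas controls had 3.86 and 3.69 CPM, and the OA-AP libraries 0.262, 1.03 and 0.261 CPM, from 5, 18 and 5 counts. The level was thus 7.30-fold lower (log2 -2.87, SE 0.58, edgeR adjusted p = 0.00718). Without either control library the log2 change was -2.83 or -2.90 but was no longer called (edgeR adjusted p = 0.0655 and 0.0618). Without OA-AP replicate 2, the library with 18 counts, it was -3.81. In adipose tissue 10.8, 10.8 and 12.7 CPM in controls stood against 3.21, 2.21 and 2.53 CPM in OA-AP, 4.32-fold lower (log2 -2.11, SE 0.19, edgeR adjusted p = 0.000569). The adipose call held with each of the 6 libraries left out in turn.

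Ppargc1b, the other coactivator of the family, was downregulated in adipose tissue, with 10.5, 4.53 and 6.43 CPM in controls and 4.51, 1.92 and 1.82 CPM in OA-AP. The groups were separated by the gap between 4.53 and 4.51 CPM. The 2.61-fold lower level (log2 -1.38, SE 0.45, edgeR adjusted p = 0.0489) was no longer called without control replicate 1 or 3 or OA-AP replicate 2 or 3, with edgeR adjusted p of 0.0992 to 0.147. In the pancreas it had 14 and 4 counts in controls and 2, 6 and 7 in OA-AP and was not tested.

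Esrra (chr19:6910977-6921813, minus strand), the receptor through which both coactivators reach many mitochondrial genes, had 35.9, 23.6 and 32.1 CPM in control and 20.9, 17.5 and 19.2 CPM in OA-AP adipose tissue. It was 1.59-fold lower (log2 -0.67, SE 0.17, edgeR adjusted p = 0.0185), a call that was lost without control replicate 1 or 3 or OA-AP replicate 3 (edgeR adjusted p of 0.0585 to 0.0678). In the pancreas the values were 15.8 and 12.3 CPM in controls and 17.4, 18.4 and 16.1 CPM in OA-AP (log2 0.30, SE 0.16, edgeR adjusted p = 0.193).

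Klf15 (chr6:90462576-90475238, plus strand) was not called in either tissue. In the pancreas 82.3 and 99.4 CPM in controls overlapped with 98, 88.6 and 66.7 CPM in OA-AP, with a log2 change of -0.11 (SE 0.18, edgeR adjusted p = 0.687). Adipose values ran from 62.6 to 118 CPM in controls (118, 62.6 and 97.0 for replicates 1, 2 and 3) and were 34.4, 77.7 and 20.1 CPM in OA-AP. OA-AP replicate 2, with 77.7 CPM, lay inside the control range, and the log2 change was -1.07 (SE 0.49, edgeR adjusted p = 0.131). Without that library it was -1.76 and was called (edgeR adjusted p = 0.0129). The same library had the highest Cebpd and the lowest Cebpa and Nr1h3 among the OA-AP adipose libraries.

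**Figure D3:**
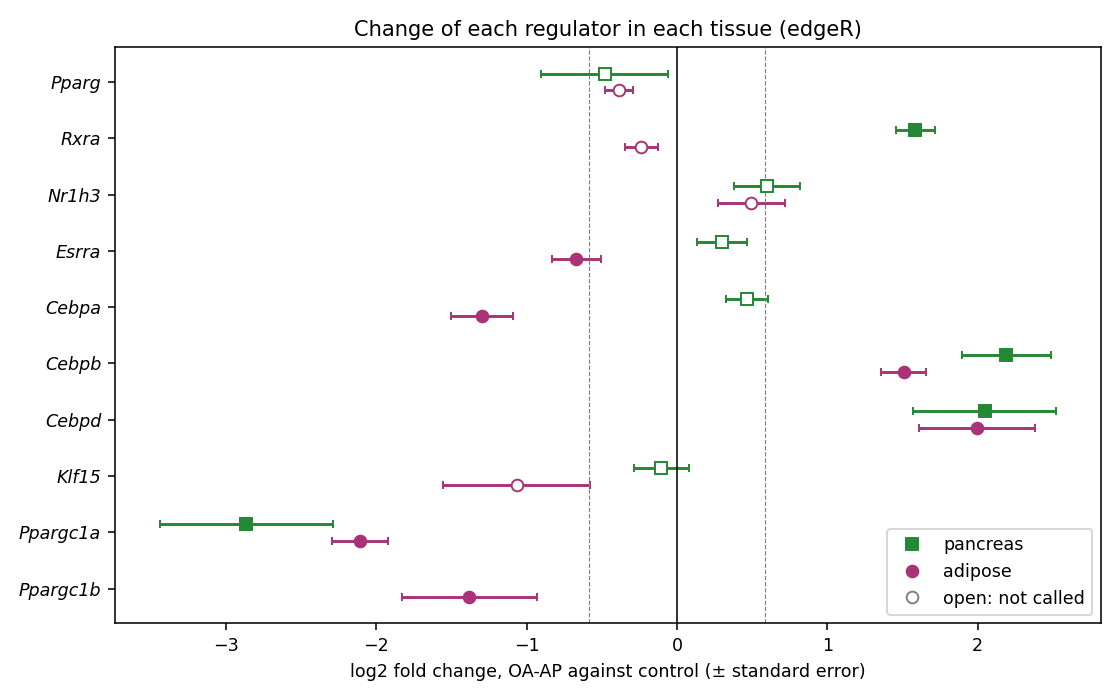
Log2 fold change of each regulator, OA-AP against control, in the pancreas (squares) and adipose tissue (circles) from edgeR, with bars of 1 standard error either way, filled symbols for calls and dashed lines at the 1.5-fold threshold. Cebpb and Cebpd are to the right and Ppargc1a to the left of the lines in both tissues, whereas Rxra and Cebpa lie on opposite sides of 0 in the pancreas and adipose tissue.

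Whether the change differed between tissues was tested with the tissue by condition term in all 11 libraries, which was significant for 21.3% of 17046 genes. It was significant for 3 members, each with a lower change in adipose tissue than in the pancreas. The difference of log2 changes was -1.83 for Rxra (SE 0.17, edgeR adjusted p = 4.99e-05), -1.78 for Cebpa (SE 0.26, edgeR adjusted p = 0.000781) and -0.98 for Esrra (SE 0.25, edgeR adjusted p = 0.0155). Without pancreas control replicate 2 the difference for Esrra was -0.80 and no longer significant (edgeR adjusted p = 0.0921). For Cebpb the difference was -0.70 (SE 0.33, edgeR adjusted p = 0.169), and for Cebpd -0.06 (SE 0.69, edgeR adjusted p = 0.997). Ppargc1a (0.77, SE 0.57, edgeR adjusted p = 0.389), Klf15 (-0.97, SE 0.65, edgeR adjusted p = 0.338), Nr1h3, Pparg and Ppargc1b were not significant either. For Ppargc1a this changed without pancreas OA-AP replicate 2, with a difference of 1.71 (edgeR adjusted p = 0.0132), and for Klf15 without adipose OA-AP replicate 2, with -1.73 (edgeR adjusted p = 0.0150).

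Between the control tissues, where diet and ethanol play no part, 7 members were called and 5 of them were higher in adipose tissue, against 55.5% of all 17046 genes called and 29.4% higher. Pparg differed most, at 145 CPM in adipose tissue and 3.75 CPM in the pancreas when all 11 libraries were scaled together (39.1-fold, log2 5.29, SE 0.21, edgeR adjusted p = 2.62e-09). Cebpa was 11.9-fold higher in adipose tissue (log2 3.57, SE 0.22), Nr1h3 3.97-fold, Cebpb 1.94-fold and Rxra 1.91-fold. Without pancreas control replicate 2 the difference for Cebpb was no longer called (log2 0.94, edgeR adjusted p = 0.0582). Klf15 was 3.86-fold lower in adipose tissue (log2 -1.95, SE 0.47, edgeR adjusted p = 0.00516) and Esrra 1.81-fold lower (log2 -0.85, SE 0.18, edgeR adjusted p = 0.00172). With library totals alone both turned, to 0.53 and 1.60. The size of each fold between the tissues, also for the members higher in adipose tissue, thus depends on the scaling. The share of all genes called lower in adipose tissue was 26.0%. Cebpd, Ppargc1a and Ppargc1b were not called. The tables of the 2 tissues may rest on different annotations, which touches each value set across them.

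Levels of different genes can be compared only per length, as CPM per kilobase of the deposited gene length. In control adipose tissue Cebpa stood first at 326 ± 21.4 (SD, n = 3) and Pparg second at 92.0 ± 3.31, followed by Rxra, Nr1h3, Klf15 and Cebpb at 45.2 to 24.8, whose neighbours in the order overlapped. Esrra (12.0) and Cebpd (8.62) overlapped, and Ppargc1b and Ppargc1a closed the order at 1.79 and 1.74. In OA-AP adipose tissue Cebpa was still first at 133 ± 34.5 (SD, n = 3), but Cebpb at 70.4 ± 13.6 now overlapped with Pparg at 70.3 ± 2.99. In the pancreas Klf15 led in both groups, at 32.6 ± 4.34 (SD, n = 2) in controls and 30.3 ± 5.74 (SD, n = 3) in OA-AP. Next came Cebpa (6.99), Rxra (6.01) and Esrra (5.52) in control pancreas, with Rxra and Esrra overlapping, and Rxra (18) and Cebpb (14.8) in OA-AP pancreas, which overlapped as well. Ppargc1b had the lowest mean in both pancreas groups, but in OA-AP pancreas it overlapped with Ppargc1a. The place of Esrra in each order rests on its deposited length of 2539 bases, against 4387 exon bases in GENCODE M21, while the other 9 lengths were the same in both.

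**Figure D4:**
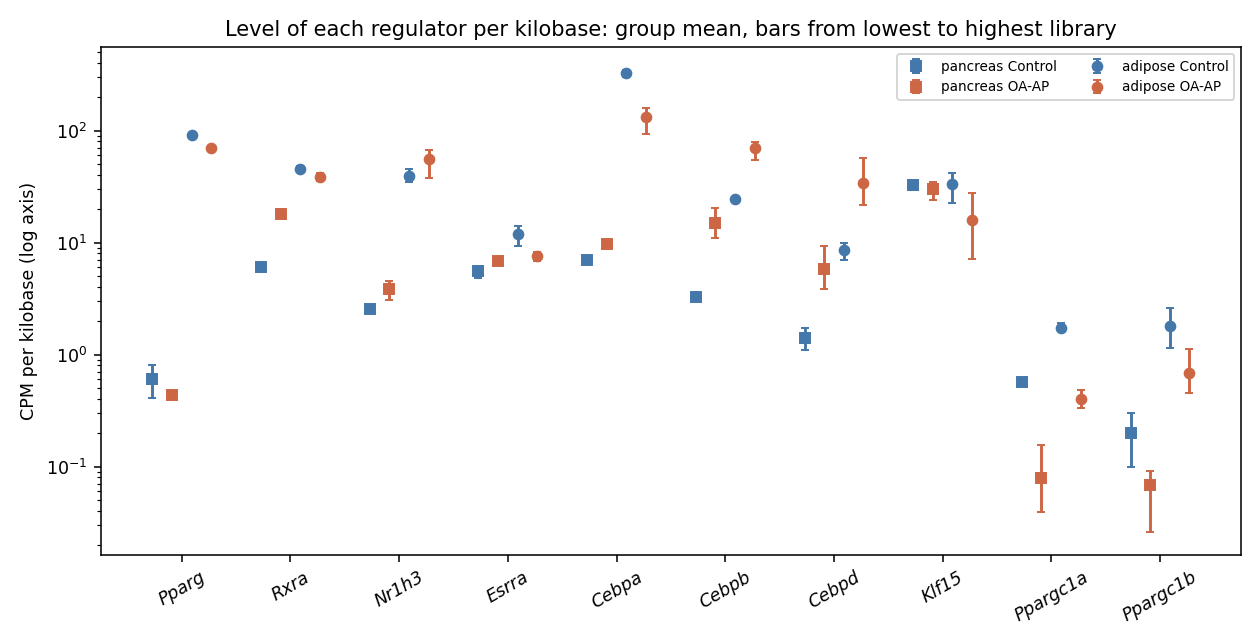
CPM per kilobase of deposited gene length (log axis) of each regulator in the 4 groups, with the group mean as symbol and bars from the lowest to the highest library. Cebpa at 326 and Pparg at 92.0 CPM per kilobase lead in control adipose tissue and Klf15 at 32.6 in control pancreas. Scaling is within each tissue, so levels are not comparable between tissues.

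Likeness to a member was measured as the correlation of log2 CPM across the 11 libraries, which share tissue and condition, so the values are a description. Fosl2, a subunit of the AP-1 factor, was most like Cebpd (Pearson's r 0.983), followed by Creb3 (0.974) and Fam104a (0.971). Zfp652 (0.981), Luc7l2 (0.975) and Mtss1 (0.975) were most like Ppargc1a. For Klf15 the closest genes were Rab4a (0.905), 1810026B05Rik (0.864) and Klc4 (0.814). Pparg had Arpp19, Coa5 and Ddx42, each at 0.998, and Cebpa had Tbc1d20, Prkaa1 and Tmem43 at 0.997 to 0.995. Log2 CPM of Pparg was 0.41 to 1.33 in the pancreas and 7.63 to 8.14 in adipose tissue. For Cebpa it was 4.09 to 4.72 and 7.95 to 9.83. The correlations of these members thus mostly follow the step between the tissues, whose size is uncertain because CPM was scaled within each tissue.

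The relatives of the members were counted in lists of genes, beside the median of all tested genes, 0.04 in the pancreas and -0.01 in adipose tissue on the log2 scale. These lists were chosen with earlier results of these data known, so their counts are a description. The shares called among all tested genes were 29.8% in the pancreas and 25.1% in adipose tissue. Of 6 tested genes listed as the C/EBP family, which include 3 members, 4 were upregulated and 1 downregulated in the pancreas (median 0.85). In adipose tissue 3 were upregulated and 1 downregulated (median 0.40). Cebpg rose 2.10-fold in the pancreas (log2 1.07, SE 0.15), while Ddit3, the stress-induced dominant inhibitor of the family, fell (log2 -1.96, SE 0.29, edgeR adjusted p = 0.00206). Cebpz, which the list holds by its name although it is not a C/EBP factor, rose 1.61-fold in adipose tissue. The other calls of this list there were the members Cebpb, Cebpd and Cebpa. Of the PPAR, RXR, LXR and ERR receptors, which include 4 members, 2 of 8 tested were upregulated in the pancreas (6 with library totals), Rxra and Rxrb, the latter 2.22-fold (log2 1.15, SE 0.14, edgeR adjusted p = 0.000842). In adipose tissue 3 of 10 were called: Rxrg fell (log2 -2.77, SE 0.26, edgeR adjusted p = 0.000699), Ppard rose 1.71-fold and Esrra fell.

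Nuclear receptor coregulators, with the PGC-1 family, rose more often than they fell in the pancreas. Of 20 tested, 8 were upregulated and 1, the member Ppargc1a, was downregulated (median 0.57). With library totals 16 were upregulated and 1 downregulated, and without a filter on low counts 12 and 2. Ncoa4 rose 2.37-fold, Ncoa6 2.21-fold, Tle3 3.25-fold and Pprc1 2.40-fold, the last encoding a relative of PGC-1α and PGC-1β. With each pancreas library left out in turn, the calls of Tle3 (log2 1.39 to 1.90) and Pprc1 (log2 1.04 to 1.47) were each lost in 1 of 5 fits. Pprc1 rose in adipose tissue too (2.79-fold, log2 1.48, SE 0.15, edgeR adjusted p = 0.000825), where Ppargc1a and Ppargc1b fell. There 3 of 21 coregulators were upregulated and 3 downregulated (median -0.14). The 3 decreases were Lpin1, 2.13-fold lower, and the members Ppargc1a and Ppargc1b.

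Other adipogenic regulators, a list with 5 members, were called 9 higher and 3 lower among 36 in the pancreas (median 0.05), which became 19 higher and none lower with library totals. Klf5 rose 3.30-fold and Klf13 2.30-fold there, and the clock receptor Nr1d1 was 1.95-fold lower. In adipose tissue 3 rose and 8 fell among 40 (median -0.32). Ebf2 was 2.11-fold lower, Nr3c1, the glucocorticoid receptor, 1.93-fold lower and Nfia 2.71-fold lower. The shares of this list called, 33.3% in the pancreas and 27.5% in adipose tissue, were near those of all tested genes, 29.8% and 25.1%.

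**Figure D5:**
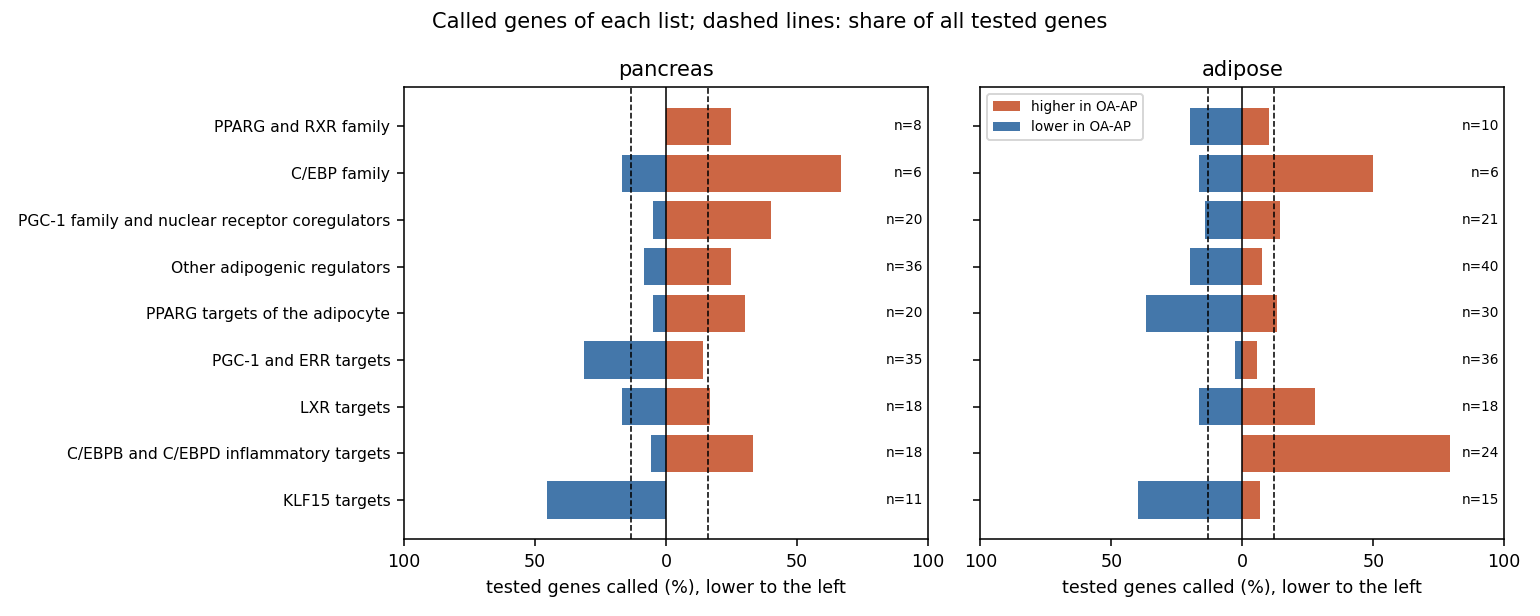
Percent of the tested genes of each list (n at the right) called higher (right of 0) or lower (left of 0) in OA-AP in the pancreas and adipose tissue, with dashed lines at the share of all tested genes, 16.2% and 13.5% in the pancreas and 12.1% and 13.0% in adipose tissue. In adipose tissue 19 of 24 C/EBPβ and C/EBPδ inflammatory target genes are called higher and 11 of 30 PPARγ targets lower. The lists were chosen with earlier results of these data known, so the shares are a description.

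Known PPARγ target genes of the adipocyte were called 4 higher and 11 lower among 30 in adipose tissue (median -0.50). Lpl, the lipoprotein lipase, was at 10593 ± 294 CPM (SD, n = 3) in controls and 5465 ± 316 CPM in OA-AP (log2 -0.95, SE 0.15, edgeR adjusted p = 0.00355), Aqp7, the glycerol channel, was 2.24-fold lower and Slc2a4, the insulin-responsive glucose transporter, 2.71-fold lower. Angptl4, the inhibitor of lipoprotein lipase, went the other way, 2.61-fold higher (log2 1.39, SE 0.19). In the pancreas 6 of 20 rose and 1 fell (median 0.54; 11 and 1 with library totals), where Angptl4 stood at 1.03 ± 0.61 CPM (SD, n = 2) in controls and 59.5 ± 16.1 CPM (SD, n = 3) in OA-AP, Lipe rose 2.38-fold and Lpl was 3.31-fold lower. The log2 change of Angptl4 there was 5.81, and 6.62 without control replicate 1.

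Targets of PGC-1α and ERRα were called 5 higher and 11 lower among 35 in the pancreas (median -0.51), but 9 higher and 1 lower with library totals. The 2 leading increases were Pdk4, which blocks glucose oxidation, at 4.42 ± 1.03 CPM (SD, n = 2) in control and 264 ± 63.6 CPM (SD, n = 3) in OA-AP pancreas, and Ucp2, 8.24-fold higher. Atp5j, a subunit of the ATP synthase, was 2.62-fold lower and Sdhb, of complex II, 1.99-fold lower. In adipose tissue, where Ppargc1a, Ppargc1b and Esrra were all lower, 3 of 36 such targets were called (8.33%, median -0.11), with Pdk4 7.66-fold and Ucp2 1.73-fold higher and Ucp3 2.29-fold lower. The call of Ucp3 was lost in 1 of 6 fits with an adipose library left out (log2 -1.40 to -0.87).

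LXR targets, a list with 1 member, were called 3 higher and 3 lower among 18 in the pancreas (median -0.06), which library totals turned into 8 higher and 2 lower, and 5 higher and 3 lower among 18 in adipose tissue (median -0.01). Lpcat3, a phospholipid remodelling enzyme, rose 1.96-fold in the pancreas and 2.28-fold in adipose tissue. Fasn rose 2.05-fold and Scd2 was 11.9-fold lower in the pancreas (log2 -3.57). For Scd2 the log2 change was -4.29 without OA-AP replicate 2, and it was no longer called without a filter on low counts. Ttc39b was 1.58-fold higher and Srebf1, the regulator of lipogenesis, 2.31-fold lower in adipose tissue. The call of Ttc39b was lost in 1 of 6 fits with an adipose library left out (log2 0.58 to 0.74).

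Inflammatory target genes of C/EBPβ and C/EBPδ were upregulated in adipose tissue in 19 of 24 cases with no decrease (median 4.39). Serpina3n stood at 484 ± 72.3 CPM in controls and at 8069 ± 1081 CPM in OA-AP (SD, n = 3), Socs3 was 14.7-fold higher, S100a8, a neutrophil gene, 25.1-fold higher and Ptx3 went from 1.26 ± 0.29 to 286 ± 170.4 CPM. In the pancreas 6 of 18 were upregulated, Serpina3n, Saa3 and Lcn2 among them. The 1 decrease was Fgf21, which the list holds although it encodes a metabolic hormone and not an inflammatory protein. It was 16.8-fold lower (log2 -4.07, and -4.81 without OA-AP replicate 3). DESeq2 called 15 of this list in the pancreas, 14 of them higher, and edgeR 10 without OA-AP replicate 2 or 3 and 4 without control replicate 1. In 6 of the 18 genes every library of one group had 3 counts or fewer, so that the pancreas median of 5.36 depends on how such counts are treated and is 4.17 with these genes at the bound that 3 counts per library give.

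Target genes of KLF15 were called lower in 5 of 11 cases in the pancreas with none higher (median -0.84), and 1 higher and 4 lower with library totals, although Klf15 itself was not called there. Cth was 16.1-fold lower (log2 -4.00, SE 0.23, edgeR adjusted p = 5.22e-05), and the amino acid catabolic genes Aass, Bcat2 and Bckdhb were 9.47-fold, 2.53-fold and 2.72-fold lower. In adipose tissue 6 of 15 fell and 1 rose (median -1.23). Gpt2, an alanine aminotransferase, was 3.27-fold lower and Cth 4.03-fold lower, and Odc1, the first enzyme of polyamine synthesis, was 3.75-fold higher. In the pancreas, leaving out control replicate 1 or 2 lowered the calls over all lists from 65 to 40. With each library left out in turn, calls in the pancreas ranged from 2 to 4 for the receptors (4 without OA-AP replicate 3), 3 to 5 for the C/EBP family, 4 to 11 for the coregulators, 5 to 12 for the other adipogenic regulators, 9 to 20 for the PGC-1 and ERR targets and 4 to 10 for the LXR targets, and in adipose tissue from 4 to 8 for the LXR targets and 2 to 5 for the receptors (5 without OA-AP replicate 2).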

How the data were processed

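RNA sequencing libraries of pancreas and epididymal adipose tissue were analysed from deposited counts. Per the labels and the study's methods, the authors trimmed reads with Trim Galore (0.6.6), checked them with fastp (0.20.1), used STAR for mapping to GRCm38 and featureCounts (2.0.1) for counts per gene. They deposited raw counts per gene, 1 table per tissue, with a gene length in that of the pancreas. The annotation release and strand setting are not given in the sources used here.

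The members and gene lists were chosen with earlier results of these data known. Each tissue was fitted apart in edgeR 4.0.16 (R 4.3.3) with filterByExpr, TMM factors and the robust quasi-likelihood test. The 45260 genes in both tables were fitted over 11 libraries for the tissue comparisons. A call needed a Benjamini-Hochberg adjusted p below 0.05 over all tested genes and a fold change of at least 1.5, or for the tissue by condition term the adjusted p alone. The SE is the log2 change divided by the square root of F. Ratios added 0.5 to each count. Floors of 3 counts (0.102 to 0.299 CPM) cover counting error only.

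Named genes were the members, up to 4 called genes with the smallest p in each list and tissue, the 3 genes most correlated with Pparg, Cebpa, Cebpd, Ppargc1a and Klf15 (log2 CPM, prior count 2), and cell type markers. One gene that this rule names is not reported here. Genes with overlapping exons were named after their values were seen. Alternatives were DESeq2 1.42.0, its size factors, library totals, TMM without acinar genes, no filter, a minimum of 10 counts per library, a fold threshold of 2, no fold threshold, each library left out in turn and the replicate block. For the tissue by condition term and the control tissues, leaving out libraries was added after seeing the data, as was the macrophage list without Lpl. The procedure was tested on simulated data. Counts differed between replicates by more than sampling noise, with a chi-square per degree of freedom of at least 7.24.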

Additional observations from a re-analysis of the deposited data

Results flagged for a closer look

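The change in OA-AP differed between adipose tissue and the pancreas for 3 of the 10 regulators, by the test of the tissue by condition term. The log2 change in adipose tissue less that in the pancreas was -1.83 for Rxra, with log2 changes of -0.24 in adipose tissue and 1.59 in the pancreas. It was -1.78 for Cebpa, with log2 changes of -1.30 and 0.47. It was -0.98 for Esrra, with log2 changes of -0.67 and 0.30. The term was significant for 21.3% of all genes tested.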

How the results depend on the processing

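Calls of members were recomputed under each alternative. DESeq2, its size factors in edgeR and TMM without acinar genes left the counts at 4 in the pancreas, 6 in adipose tissue and 3 for the tissue by condition term. With library totals alone 6349 genes and 8 members were called in the pancreas, 7 of them higher, and 6 for the tissue by condition term. This scaling reversed Pparg (0.25) and Klf15 (0.63) in the pancreas, the tissue difference of change for Pparg (-0.78), Ppargc1a (-0.086) and Ppargc1b (-0.63), and the control tissue difference for Esrra (1.60), Klf15 (0.53) and Ppargc1a (2.09), all log2 values. Rxra, Cebpb, Cebpd and Ppargc1a stayed called in the pancreas under it, at 2.30, 2.88, 2.71 and -2.16, beside a median of 0.75 for all tested genes. A fold change of at least 2 lowered the genes called from 3834 to 2464 in the pancreas and from 3981 to 2228 in adipose tissue. Without a filter on low counts, Cebpd and Ppargc1b were no longer called in adipose tissue (edgeR adjusted p = 0.0559 and 0.0844) and Nr1h3 was called in the pancreas (log2 0.67).

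With each library left out in turn, members called ranged from 2 to 5 in the pancreas, 4 to 7 in adipose tissue, 2 to 4 for the tissue by condition term and 6 to 7 between control tissues. All genes called in the pancreas ranged from 1495 to 4265 and list genes from 40 to 79, lowest without a control library. Pancreas log2 changes ranged from -0.90 to 0.088 for Pparg and -0.24 to 0.039 for Klf15. The tissue difference of change ranged from -0.47 to 0.50 for Pparg, -0.32 to 0.047 for Nr1h3, -0.69 to 0.45 for Cebpd and -0.85 to 0.76 for Ppargc1b. The adipose change of the Klf15 to Cebpa ratio, 0.09, turned to -0.12 without control replicate 2 and -0.66 without OA-AP replicate 2 (range -0.66 to 0.70). The cause of these changes was not tested, beyond the smaller number of samples.

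Deviations of same-numbered control and OA-AP samples correlated at 0.00147 and -0.0410 in the pancreas and -0.00580, 0.0562 and -0.163 in adipose tissue. Between the tissues, same-numbered samples correlated at -0.0505 and -0.0275 in controls and -0.00859, 0.0893 and 0.130 in OA-AP. Pairs of OA-AP samples with different numbers ranged from -0.119 to 0.0820 between the tissues. The numbers were taken as names, and whether same-numbered tissues came from 1 animal was not tested. The replicate block fits a term for each replicate number. In the pancreas OA-AP replicate 3 has no control of its number, so the block's condition effect there rests on replicates 1 and 2. In the block over same-numbered tissues, adipose control replicate 3 likewise has no pancreas sample of its number. With the replicate block 5 members were called in the pancreas, Nr1h3 added (log2 0.74, edgeR adjusted p = 0.00893), and 6 in adipose tissue, Klf15 in the pancreas turned to 0.051, and the tissue difference of change for Ppargc1b to -0.043 with the block over same-numbered tissues. The tissue by condition term kept 3 significant members. The block raised the pancreas calls among the inflammatory C/EBP targets from 7 to 14 and all genes called from 3834 to 4186.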
